A study of Mus musculus with 12 samples.

Results

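The single-cell RNA-seq libraries whose cell barcodes end in 7, 8 or 9 were compared with those whose barcodes end in 4, 5 or 6, which makes 6 of the 12 libraries of a series on stromal cells of the mouse joint, 3 on each side. The 4-6 libraries are labelled resolved 1 (suffix 4), rest 2 (suffix 5) and peak 2 (suffix 6), and the 7-9 libraries resolving 2 (suffix 7), resolved 2 (suffix 8) and rest 3 (suffix 9). Every library came from pooled hind limb joints of 3 wild-type male C57BL/6 mice of 8 to 10 weeks, from which live cells without CD45, the surface marker of immune cells, were sorted. The stages belong to serum transfer-induced arthritis (STIA), in which 100 µl of serum of arthritic K/BxN mice, given intravenously, brings on joint inflammation that later subsides. Rest stands for day 0, without serum. Peak libraries were taken from day 7 to day 9, the resolving ones on day 15 and the resolved ones on day 22. The labels rest and resolved occur on both sides, peak only among the 4-6 libraries and resolving only among the 7-9 libraries. Which stage stands behind a run of suffixes is not known, and a batch may coincide with it, so that stage and batch cannot be told apart here.

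The runs of 3 consecutive suffixes were chosen by summed fibroblast expression in these same libraries. Differences between the runs in fibroblasts are therefore given as a description, with no p-value, and nothing is read from their number. Vascular endothelial, osteoblast, chondrocyte, tenocyte and perivascular cells were not used for that choice, and their differences carry a test. Cells with more than 500 and fewer than 5000 detected genes were kept, 10494 in the 6 libraries out of 20213 in all 12, with 4763 cells in the 4-6 and 5731 in the 7-9 libraries. Single libraries held 1254 to 2755 of these cells and 7739438 to 16750555 UMIs (molecular tags that count captured RNA molecules). The median number of UMIs per deposited cell was 5358 in each of the 12 libraries, so that the counts look brought to one depth. No cell barcode occurred in 2 of them.

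Synovial fibroblasts line the joint and fill the tissue under its surface. The lining layer makes lubricin and other components of joint fluid, while the sublining around vessels supplies matrix and survival signals. In arthritis both kinds of cell can secrete chemokines that draw in neutrophils and monocytes, cytokines of the interleukin 6 family, and enzymes that break down cartilage and bone, and their demand for glucose and glycolysis grows. During repair the same cells lay down collagens and proteoglycans. Tenocytes of the tendons, chondrocytes of the cartilage and osteoblasts of the bone surface are related mesenchymal cells that come along in a digest of whole joints.

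Fibroblast-like cells made up a larger share of the 7-9 libraries, and dividing cells a larger share of the 4-6 libraries. Values are given throughout in the order of the suffixes, that is resolved 1, rest 2 and peak 2 for the 4-6 libraries and resolving 2, resolved 2 and rest 3 for the 7-9 libraries. Fibroblast-like cells were 56.8%, 58.5% and 60.1% of the cells of the 4-6 libraries and 64.8%, 70.6% and 69.2% of those of the 7-9 libraries, 58.5% ± 1.68 against 68.2% ± 3.07 (SD, n = 3 pools each). Proliferating cells, a cluster led by Birc5, Hmmr and Top2a, were 12.7%, 8.11% and 11.4% against 2.38%, 4.28% and 2.15%, 10.7% ± 2.37 against 2.94% ± 1.17. Neither share overlapped between the runs. Both shares are set by fibroblast expression, on which the runs were chosen, and carry no test. In the other 6 libraries proliferating cells were between 0.0701% and 0.458% of the cells.

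Most proliferating cells were fibroblasts by their own markers. Of the 705 cells in that cluster, 663 (94%) fell into the fibroblast class when each cell was classed by its marker genes. Fibroblast-like and proliferating cells together were 69.5%, 66.6% and 71.5% of the 4-6 libraries and 67.1%, 74.9% and 71.4% of the 7-9 libraries, ranges that overlap. With each cell classed by its own markers the fibroblast share turned round, at 77.1%, 75.3% and 78.1% against 73.3%, 75.3% and 67.0%. The direction of the fibroblast share therefore depended on whether cells were classed by cluster or one by one.

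With cells classed by cluster, the shares of the 5 other classes large enough to compare overlapped between the runs. Vascular endothelial cells were 6.24% ± 1.14 of the cells of the 4-6 and 5.44% ± 1.0 of those of the 7-9 libraries (two-sided exact permutation p = 0.6). Tenocyte-like cells were 7.9% ± 1.46 and 7.92% ± 2.15 (exact permutation p = 1). With each cell classed by its own markers they were fewer and did not overlap, at 1.15%, 1.92% and 1.84% against 4.53%, 3.3% and 5.82%. Of the 7 tenocyte markers used for this, 5 were higher past the threshold in fibroblasts of the 7-9 libraries. That share is therefore not independent of the contrast by which the runs were chosen, and carries no test. Osteoblast-like cells were 4.66% ± 0.974 and 4.72% ± 0.265 (exact permutation p = 0.9), chondrocyte-like cells 3.6% ± 1.27 and 3.5% ± 1.93 (exact permutation p = 1) and perivascular cells 3.83% ± 0.728 and 3.72% ± 1.6 (exact permutation p = 0.8). Overlap in 3 against 3 libraries does not show that these shares are alike. Erythroid cells, of which the 6 libraries held few, were 0.661% ± 0.387 against 0.131% ± 0.102 without overlap. Immune cells left by the CD45 sort were 0.613%, 0.438% and 2.39% against 0.987%, 0.581% and 0.558%, with peak 2 above the rest.

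**Figure D1:**
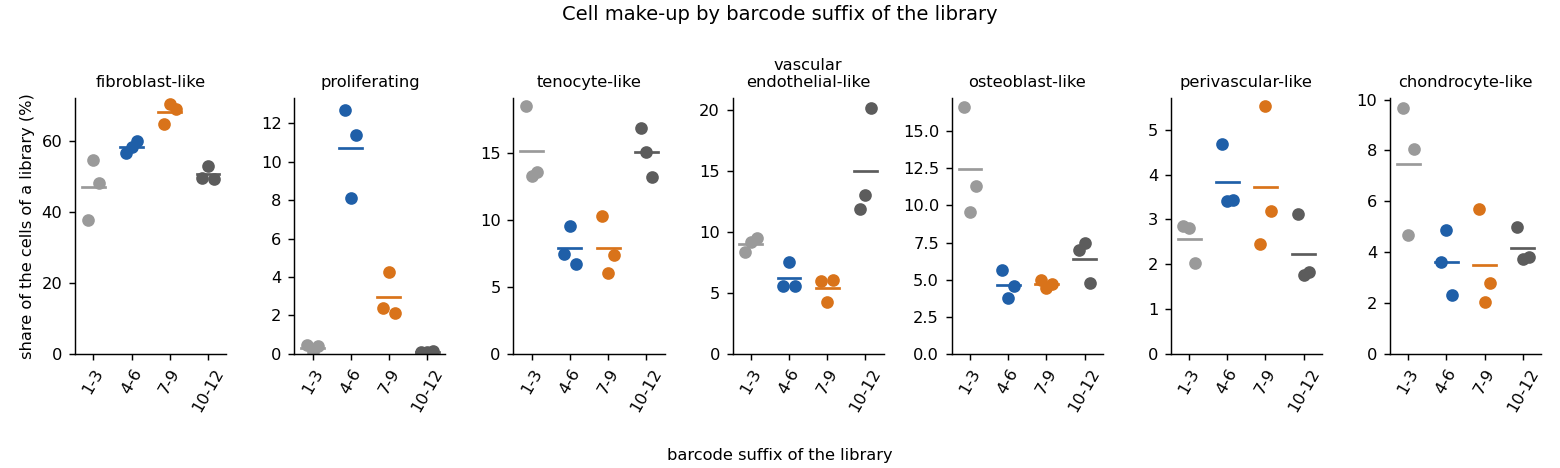
Share of the cells of each library (%, linear axis from 0) in 7 classes of cells, with 1 point per library, the libraries grouped by barcode suffix and a line at the mean of each run. Fibroblast-like cells lie at 64.8% to 70.6% in the 7-9 libraries, above the 56.8% to 60.1% of the 4-6 libraries, and proliferating cells at 2.15% to 4.28%, below 8.11% to 12.7%.

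The fibroblasts of the runs were divided unequally among clusters. One cluster led by Cxcl5, Saa3 and Sfrp1 had 1359 cells, 1151 of them from the 4-6 and 207 from the 7-9 libraries, 41.3% ± 1.09 and 5.32% ± 0.197 of the fibroblasts of a library. Another, led by C1qtnf3, Slc40a1 and Spon2, had 1362 cells, 1269 of them from the 7-9 and 50 from the 4-6 libraries, 32.3% ± 4.81 and 1.74% ± 0.476. A further cluster, led by Col5a3, Il1rl1 and Lrrc15, held 416 and 783 cells of these runs among 1227. The genes that define these clusters differ between the runs, so their sizes are no result of their own.

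The cells were also clustered without the genes past the threshold in fibroblasts. Genes that differed by less remained, and the fibroblasts are those on which the runs were chosen, so the shares below are a description of the same contrast. A cluster led by Il1rl1, Cxcl5, Gjb5 and Ptgs2 held 21.7%, 23.2% and 26.6% of the fibroblasts of the 4-6 libraries and 11.3%, 14.3% and 9.47% of those of the 7-9 libraries. Ptgs2 encodes the inducible cyclooxygenase that makes prostaglandins. A cluster led by Ifi205, Inmt and C4b, a complement gene, held 24.7%, 21.9% and 20.6% against 15.4%, 5.07% and 14.4%. In the opposite direction, a cluster led by Inmt, Abca8a and the eosinophil chemokine Ccl11 held 3.91%, 4.5% and 2.28% against 7.19%, 5.89% and 7.62%. These 3 clusters did not overlap between the runs.

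The 6 other clusters of that clustering overlapped between the runs. A cluster led by C1qtnf3 and Fbn2, the gene of fibrillin 2, held 19.8% ± 4.69 of the fibroblasts of the 4-6 libraries against 31.3% ± 8.03 of the 7-9 libraries. Sublining cells, marked by Pi16 and Dpp4, were 4.32% ± 0.711 against 5.13% ± 2.21, and lining cells, marked by Prg4 and Clic5, 2.82% ± 0.83 against 3.4% ± 1.63. Clusters led by Ccl9 and by Saa3 held 10.8% ± 2.25 against 14.4% ± 1.88 and 11.3% ± 2.84 against 14.1% ± 3.27. Prg4 was also among the leading genes of the Ccl9 cluster, so that lining-like cells may lie outside the cluster named lining. An interferon cluster led by Ifit3 held 1.27% ± 0.198 and 1.41% ± 1.03. In the 1-3 and 10-12 libraries the Cxcl5 cluster held 0.136% to 1.1% of the fibroblasts and the C1qtnf3 cluster 0% to 1.73%, below the level of any of the 6 libraries compared here.

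UMIs were then summed over the fibroblast-like cells of each library, 741, 1068 and 982 cells for the 4-6 and 1115, 1946 and 868 cells for the 7-9 libraries. Levels are given as CPM, that is each gene's UMIs per 1000000 UMIs of the sum, with the total scaled by TMM (summed levels of marker lists by the plain total). A gene is past the threshold when its adjusted p is under 0.05 and its log2 fold change lies above 0.5 or below -0.5, with positive values higher in the 7-9 libraries. In such a sum fewer cells in a state and less RNA per cell cannot be told apart. Among the 11802 genes that entered the fit, 10.3% (1210 genes) passed on the higher and 8.71% (1028 genes) on the lower side, 1795 to 2099 genes in all when any 1 of the libraries was left out. The median fibroblast held 7118, 6775 and 6488.5 UMIs in the 4-6 and 6001, 5869 and 6527 UMIs in the 7-9 libraries, and its mitochondrial share was 2.34%, 2.56% and 2.4% against 2.77%, 2.84% and 2.92%. The part of these values in the differences was not tested.

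Inflammatory ligands were the lists with the lowest medians in the 7-9 libraries. Of 10 CXC chemokines tested, 7 were lower and none higher past the threshold, with a median log2 fold change of -1.11. Of 10 CC and CX3C chemokines, 7 were lower and none higher, also with a median of -1.11. Of 18 cytokines and their regulators, 14 were lower and 1, Il34, was higher, with a median of -1.15. The median over all genes tested was 0.02. These counts stand beside the 8.71% of all genes that were lower, and they belong to the contrast by which the runs were recognised.

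Among neutrophil attractants Cxcl5 stood out by its level. It was at 1156, 1128 and 946 CPM in the 4-6 libraries and 176, 109 and 94.4 CPM in the 7-9 libraries, a log2 fold change of -3.09 ± 0.48 (SE). The runs were far apart. In the remaining libraries Cxcl5 was at 0 to 2.29 CPM in the 1-3 libraries and 2.4 to 27.6 CPM in the 10-12 libraries. Cxcl1, which acts on the same receptor, was at 3282, 3303 and 2768 CPM in the 4-6 libraries and 1799, 1312 and 1484 CPM in the 7-9 libraries (-1.03 ± 0.21), and Cxcl2 at 301, 242 and 205 CPM against 110.1, 93.7 and 123 CPM (-1.2 ± 0.3). Cxcl3 was at 56.9, 56.7 and 55.3 CPM against 22.4, 11.8 and 6 CPM (-2.06 ± 0.44).

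Further chemokines with other targets were also lower. Cxcl13, which attracts B cells, was at 41, 87.2 and 17.5 CPM in the 4-6 libraries and 4.46, 5.47 and 3 CPM in the 7-9 libraries (-3.43 ± 0.79), with rest 2 highest and peak 2 lowest of the 4-6 libraries. Cxcl14 was at 1264, 2606 and 1347 CPM against 417, 314 and 333 CPM (-2.29 ± 0.28). The monocyte attractant Ccl2 was at 2228, 2185 and 1824 CPM against 1060, 742 and 934 CPM (-1.19 ± 0.23), and its relative Ccl7 at 3294, 3515 and 2898 CPM against 1717, 1022 and 1250 CPM (-1.28 ± 0.24). None of these 3 genes overlapped between the runs. Ccl20, which draws in CCR6-bearing lymphocytes, was at 73.4, 68 and 50.2 CPM in the 4-6 libraries and 11.3, 9.75 and 9.17 CPM in the 7-9 libraries (-2.66 ± 0.38), and Ccl19, a ligand of CCR7, at 14.7, 21.3 and 10.3 CPM against 6.27, 3.49 and 1.5 CPM (-2.02 ± 0.36).

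Cytokines followed the same direction. Il6, the cytokine of fibroblasts that drives the acute phase in the liver, was at 239, 299 and 249 CPM in the 4-6 libraries and 135, 66.8 and 78 CPM in the 7-9 libraries (-1.5 ± 0.32), with resolving 2 highest of the 7-9 libraries. Lif, of the same family, was at 22.5, 33.1 and 20.2 CPM against 8.5, 3.81 and 7.5 CPM (-2.0 ± 0.3). Tnfsf11, the gene of RANKL that drives osteoclasts, was at 55.2, 48.5 and 48.6 CPM in the 4-6 libraries and 13.4, 7.14 and 7.17 CPM in the 7-9 libraries (-2.47 ± 0.25). Csf3, the granulocyte growth factor, rested on few molecules, with 72, 55 and 52 UMIs in the 4-6 and 4, 2 and 0 UMIs in the 7-9 libraries (-5.11 ± 0.6). Il1rn, the antagonist of interleukin 1, was lower too, at 5.46, 9.94 and 5.34 CPM against 1.39, 0.555 and 0.834 CPM (-2.96 ± 0.4). Tnf was too low to be tested.

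The promoters of these genes were searched for the NF-kB motif, the letters GGGA followed by any 4 letters and CC, on both strands. NF-kB is the transcription factor of many inflammatory genes. The search covered the 300 bases around each start site that RefSeq lists on GRCm38.p6. Of the 38 chemokine, cytokine and acute-phase genes past the threshold on the lower side 30 were matched, with 36 promoters, of which 15 (41.7%) held the letters, beside 26.8% of the 11546 promoters of all genes tested that were matched (8986 of 11802), 27.2% of those of the genes higher and 28.0% of those of the genes lower in the 7-9 libraries. The letters were also frequent in a list given below, with 7 of 13 (53.8%) for the cell cycle genes lower in the 7-9 libraries. Of the same 36 promoters 10 (27.8%) held TATAAA, the letters of the TATA box, beside 7.35% of all, and 5 (13.9%) held TGANTCA, the AP-1 motif, beside 5.21% of all. A match describes letters only. The promoters of the genes with the lowest log2 fold changes among the matches are shown 5′ to 3′ in the direction of the gene, with the matching letters in capitals. They lie at chr5:95956689-95956988 on the plus strand for Cxcl13, chr1:83116516-83116815 on the plus strand for Ccl20 and chr2:24336610-24336909 on the plus strand for Il1rn, the last being 1 of 3 starts listed.
Cxcl13: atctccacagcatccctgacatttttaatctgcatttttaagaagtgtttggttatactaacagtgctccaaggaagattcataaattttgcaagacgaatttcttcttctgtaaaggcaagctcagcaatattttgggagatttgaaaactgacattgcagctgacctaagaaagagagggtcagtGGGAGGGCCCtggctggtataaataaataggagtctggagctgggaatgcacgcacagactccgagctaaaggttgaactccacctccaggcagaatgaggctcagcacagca
Ccl20: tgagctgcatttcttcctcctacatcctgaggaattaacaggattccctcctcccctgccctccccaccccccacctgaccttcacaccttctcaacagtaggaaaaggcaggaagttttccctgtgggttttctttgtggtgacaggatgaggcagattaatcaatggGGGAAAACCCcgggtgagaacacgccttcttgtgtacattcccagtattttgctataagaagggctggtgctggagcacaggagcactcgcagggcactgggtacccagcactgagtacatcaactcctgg
Il1rn: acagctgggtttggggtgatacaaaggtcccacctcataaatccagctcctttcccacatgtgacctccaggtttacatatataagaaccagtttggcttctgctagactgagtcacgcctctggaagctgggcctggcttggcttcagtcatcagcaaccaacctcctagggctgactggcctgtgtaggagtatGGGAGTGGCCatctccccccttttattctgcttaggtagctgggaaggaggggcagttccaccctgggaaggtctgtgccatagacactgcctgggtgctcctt

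Acute-phase and defence proteins gave 10 of 20 lower and none higher, with a median of -0.59. Lcn2, the iron-sequestering lipocalin of the acute phase, was at 160.5, 262 and 136 CPM in the 4-6 libraries and 21.1, 22.4 and 16.8 CPM in the 7-9 libraries (-3.2 ± 0.32), and no 7-9 library came near the 4-6 range. Sod2, the mitochondrial superoxide dismutase, was at 366, 408 and 287 CPM against 119, 76.1 and 99.7 CPM (-1.85 ± 0.2). Serpina3g was at 18.3, 13.6 and 9.48 CPM against 3.21, 2.77 and 3.84 CPM (-2.09 ± 0.35). Saa1 was highest in rest 2, at 8.88, 49.5 and 7.74 CPM in the 4-6 libraries against 3.76, 4.84 and 1.5 CPM (-2.62 ± 0.67). The interferon-induced genes stood apart from these lists, with 1 of 24 lower, none higher and a median of 0.28. Saa1 did not pass without rest 2 (-1.19). The 1 interferon-induced gene past the threshold was Ifi204, which did not pass without rest 3 (-0.48), at 77.7, 74.8 and 72.6 CPM against 54.2, 53.3 and 34.2 CPM (-0.66 ± 0.15). Isg15 was at 32.6, 28.6 and 33.9 CPM against 43.1, 42.6 and 20.2 CPM, with overlap.

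**Figure D2:**
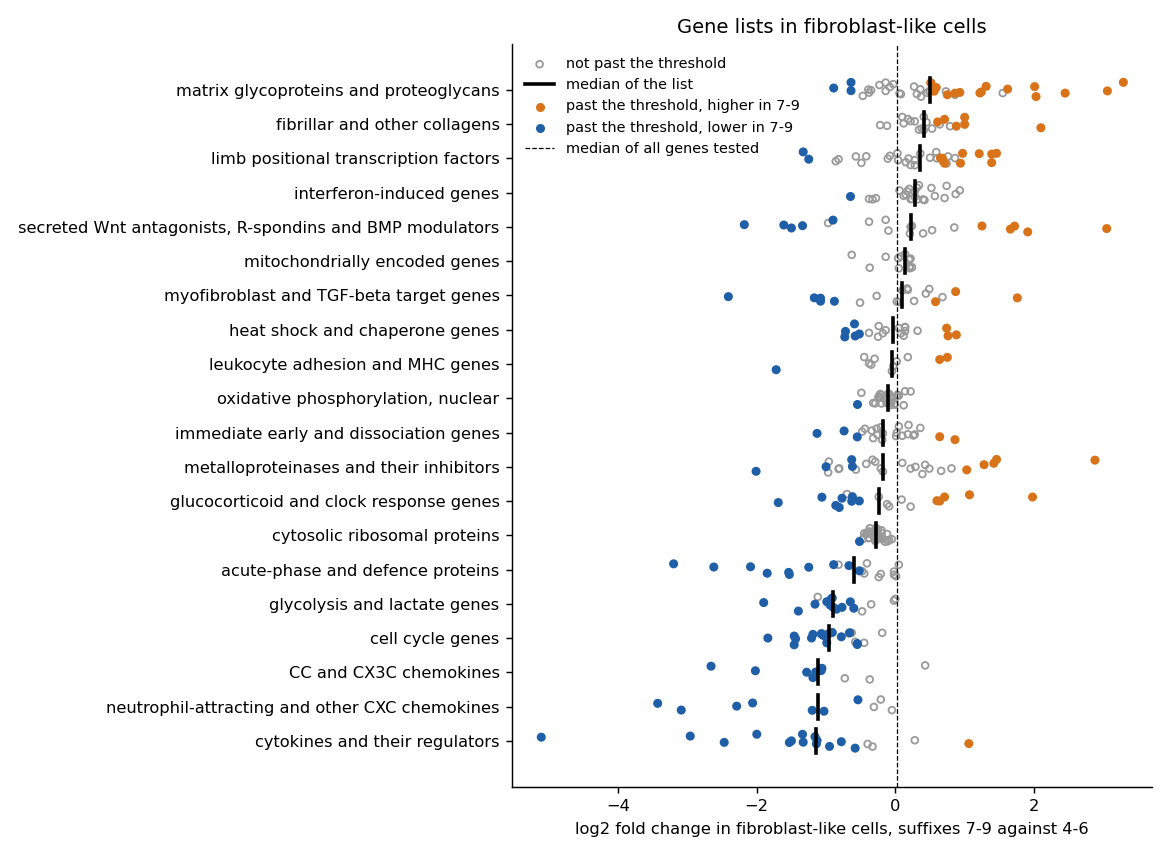
Log2 fold change in fibroblast-like cells, 7-9 against 4-6 libraries (linear axis), for each tested gene of 20 lists, with filled points past the threshold, open points not past it, a bar at the median of each list and a dashed line at the median of all genes, 0.02. Chemokine and cytokine lists have medians of -1.11 to -1.15, and collagens and matrix glycoproteins 0.41 and 0.5.

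Collagen and matrix genes lay on the opposite side. Of 21 collagens 6 were higher and none lower, with a median of 0.41, and of 40 matrix glycoproteins and proteoglycans 15 were higher and 3 lower, with a median of 0.5, beside 10.3% of all genes higher. Col6a1 and Col6a2, which encode chains of the beaded collagen VI around cells, were at 682, 781 and 854 CPM in the 4-6 libraries and 1326, 1420 and 1531 CPM in the 7-9 libraries (0.88 ± 0.11) and at 534, 657 and 660.2 CPM against 1140, 1213 and 1351 CPM (1.0 ± 0.1). The 7-9 libraries lay above the 4-6 libraries in both genes. Col15a1, a basement membrane collagen, was at 8.54, 16.3 and 11.1 CPM against 55, 58.7 and 41.5 CPM (2.1 ± 0.21). The main fibrillar collagens differed less and were not past the threshold, with Col1a1 at 11860, 10990 and 13770 CPM against 13500, 14850 and 16000 CPM (0.28 ± 0.15) and Col3a1 at 9696, 10520 and 10260 CPM against 11070, 12460 and 9661 CPM (0.12 ± 0.13). Both were at 3132 CPM or more in every library of the series, and higher in these 6 libraries than in the 6 others, where Col1a1 was at 3132 to 3665 CPM in the 1-3 libraries and 3160 to 4833 CPM in the 10-12 libraries.

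The matrix genes with the largest differences included genes of tendon. Kera, the gene of the proteoglycan keratocan, was at 8.03, 19.4 and 25.6 CPM in the 4-6 libraries and 129, 109 and 212 CPM in the 7-9 libraries (3.06 ± 0.37). Cilp2 was at 1.37, 13.3 and 5.74 CPM against 66.3, 47 and 98.2 CPM (3.29 ± 0.43), and Tnmd, which encodes the tendon membrane protein tenomodulin, at 76.8, 142 and 156 CPM against 564, 455 and 1034 CPM (2.45 ± 0.31). Rest 3 had the highest level of all 3 genes. Matn4, a matrilin, was at 34.5, 51.2 and 55.4 CPM against 139, 102 and 342 CPM (2.03 ± 0.37). Of the 7 tenocyte markers 5 were higher past the threshold in fibroblasts and none lower, and their summed level was 1020 to 1460 CPM in the 4-6 and 2650 to 3900 CPM in the 7-9 libraries, with no marker at 0. The summed osteoblast markers were at 56.5 to 85.8 and 81.9 to 150 CPM, and the perivascular markers at 35.5 to 51.3 and 70.7 to 74 CPM. The part of tenocytes, or of their free RNA, in these differences was not tested.

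Enzymes and inhibitors of matrix breakdown moved in both directions. Of 27 metalloproteinases and their inhibitors 5 were higher and 4 lower, with a median of -0.18, beside 10.3% of all genes higher and 8.71% lower. Timp1 (chrX:20870166-20874735, GRCm38), an inhibitor of matrix metalloproteinases, was at 3825, 3998 and 3063 CPM in the 4-6 libraries and 1013, 818 and 866 CPM in the 7-9 libraries (-2.01 ± 0.14), which leaves no overlap, and at 209.5 to 275 CPM in the 1-3 libraries and 276 to 321 CPM in the 10-12 libraries. Timp2, a relative of it, ran the other way, at 268, 332 and 328 CPM in the 4-6 libraries and 799.9, 782 and 972 CPM in the 7-9 libraries (1.46 ± 0.12). Both inhibitors differed by more than the spread of their libraries and in opposite directions. Adamts15, a protease that cuts the proteoglycan versican, was at 3.59, 3.53 and 3.2 CPM against 23.8, 27 and 25.2 CPM (2.88 ± 0.25), and Mmp11 at 12.5, 11.9 and 13.8 CPM against 29.7, 32.8 and 39.7 CPM (1.42 ± 0.24). Mmp3 was not past the threshold, at 620.2, 609.9 and 374 CPM against 384, 238 and 205 CPM (-0.96 ± 0.37).

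Myofibroblast and signalling genes also split. Of 19 myofibroblast and TGF-beta target genes 3 were higher and 5 lower, with a median of 0.1, beside 10.3% of all genes higher and 8.71% lower. Acta2, the smooth muscle actin of contractile fibroblasts, was at 198, 130.5 and 202 CPM in the 4-6 libraries and 61.2, 93.7 and 95.4 CPM in the 7-9 libraries (-1.08 ± 0.23). Ltbp2, a latent TGF-beta binding protein, was at 132, 93.1 and 113 CPM against 25.4, 22.3 and 15 CPM (-2.41 ± 0.31). Lrrc15, a marker of activated fibroblasts, was higher instead, at 26.1, 27.6 and 41.6 CPM against 106, 126 and 91 CPM (1.76 ± 0.27). Postn, the gene of periostin, was at 1893, 1575 and 2083 CPM against 1565, 1777 and 1394 CPM (-0.23 ± 0.24) and not past the threshold.

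Secreted Wnt and BMP modulators gave 5 higher and 5 lower of 20, with a median of 0.22, beside 10.3% of all genes higher and 8.71% lower. Sfrp1, a soluble Wnt antagonist, was at 378, 259 and 402 CPM in the 4-6 libraries and 85.6, 77 and 66.9 CPM in the 7-9 libraries (-2.18 ± 0.21). Dkk3 was at 69, 67.2 and 97.7 CPM against 240.4, 307 and 332 CPM (1.91 ± 0.32). Gdf5, the ligand of joint formation, was low in every library, at 1.2, 0.523 and 1.33 CPM against 5.16, 8.56 and 11.8 CPM (3.05 ± 0.39). Frzb passed the threshold although its runs overlapped, at 4.78, 1.83 and 2.54 CPM against 5.16, 4.12 and 22 CPM (1.72 ± 0.56), with rest 3 far above the other libraries, and it did not pass without rest 3 (0.63), rest 2 (1.44) or peak 2 (1.61). Of 33 limb positional transcription factors, which keep a memory of where along the limb a fibroblast arose, 9 were higher and 2 lower, with a median of 0.36. Hoxa10 was at 18.4, 23.9 and 18.2 CPM in the 4-6 libraries and 57.4, 54.2 and 55.7 CPM in the 7-9 libraries (1.46 ± 0.11), Hoxd9 at 6.32, 3.92 and 5.47 CPM against 13.1, 11.3 and 17 CPM (1.39 ± 0.3), and Meis2 lower at 10.9, 12.2 and 10.3 CPM against 5.02, 4.6 and 3.5 CPM (-1.33 ± 0.25). Which part of the limb each digest held was not measured.

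Glycolysis genes were lower as a list, with 12 of 17 past the threshold, none higher and a median of -0.9. Slc2a1, the gene of the glucose transporter GLUT1, was at 76.7, 53.6 and 47.8 CPM in the 4-6 libraries and 20.2, 15.2 and 11.8 CPM in the 7-9 libraries (-1.9 ± 0.22). Slc16a3, the exporter of lactate, was at 139.7, 64.3 and 89.6 CPM against 31.9, 39.3 and 39 CPM (-1.4 ± 0.25), and Eno1, an enolase, at 679, 388 and 572 CPM against 261, 253 and 217 CPM (-1.16 ± 0.15). In none of these genes did the runs overlap. Hk2 (chr6:82725025-82774454, GRCm38), the hexokinase that starts glucose breakdown and can bind mitochondria, was at 172, 224 and 218 CPM in the 4-6 libraries and 150.5, 103 and 107 CPM in the 7-9 libraries (-0.77 ± 0.17). Hk2 was at 145 to 206 CPM in the 1-3 libraries and 278 to 366 CPM in the 10-12 libraries, so that its 7-9 levels included the lowest of the series. Of 29 nuclear genes of oxidative phosphorylation 1 was lower past the threshold and none higher, with a median of -0.11. That gene was Atp5g1 at 431, 448 and 431 CPM against 287, 279 and 322 CPM (-0.56 ± 0.1). Without overlap 14 of the 29 were lower in the 7-9 libraries, beside 21% of all genes, and 3 were higher, beside 22.9%. None of 13 mitochondrially encoded genes passed the threshold by edgeR, and their log2 fold changes lay between -0.63 and 0.24. Without overlap 6 of these 13 were higher and none lower.

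Cell cycle genes were lower also in the fibroblasts outside the proliferating cluster, with 15 of 21 past the threshold, none higher and a median of -0.96. Ccnb2, a cyclin of mitosis, was at 21, 18.6 and 24.4 CPM in the 4-6 libraries and 6.97, 6.42 and 4.17 CPM in the 7-9 libraries (-1.84 ± 0.24). Top2a, which untangles DNA before division, was at 9.9, 4.31 and 9.35 CPM against 1.95, 3.25 and 3.17 CPM (-1.46 ± 0.36), and Birc5 at 16.9, 13.5 and 14.8 CPM against 6.41, 6.82 and 2.5 CPM (-1.46 ± 0.27). Mki67, which encodes the division marker Ki-67, was at 3.25, 2.75 and 6.54 CPM against 1.11, 2.06 and 1.17 CPM (-1.44 ± 0.43). All 4 genes were without overlap, at low levels, and Mki67 did not pass without peak 2 (-0.95), resolving 2 (-1.29) or rest 3 (-1.32). Of 37 cytosolic ribosomal protein genes 1 was past the threshold, with a median of -0.28 over the list, and that gene was Rps2 at 4493, 4384 and 4203 CPM against 2968, 2885 and 3275 CPM (-0.52 ± 0.11), which did not pass without resolved 2 (-0.48). In 30 of the 37 the 7-9 libraries lay below the 4-6 libraries without overlap, which was true of 21% of all genes. Without the 3 clusters made up mostly of these runs the median was 0.07. It was -0.02 in lining cells and 0.21 in sublining cells.

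Promoters of many division genes carry the letters CCAAT, the binding site of the factor NF-Y, near their start. Of the 15 cell cycle genes lower in the 7-9 libraries 13 were matched to a promoter, each with 1 promoter, of which 10 (76.9%) held CCAAT on either strand, beside 37.3% of the promoters of all genes tested. The letters TTTCCCGC, a motif of the E2F factors of division, were in 1 of the 13 (7.69%) beside 1.91% of all. A match of CCAAT may share its C letters with a match of the NF-kB motif. The 3 matched genes named above are shown, with CCAAT, or ATTGG for the opposite strand, in capitals. They lie at chr9:70421505-70421804 on the minus strand for Ccnb2, chr11:99024140-99024439 on the minus strand for Top2a and chr7:135716330-135716629 on the minus strand for Mki67, with 3, 6 and 3 matches.
Ccnb2: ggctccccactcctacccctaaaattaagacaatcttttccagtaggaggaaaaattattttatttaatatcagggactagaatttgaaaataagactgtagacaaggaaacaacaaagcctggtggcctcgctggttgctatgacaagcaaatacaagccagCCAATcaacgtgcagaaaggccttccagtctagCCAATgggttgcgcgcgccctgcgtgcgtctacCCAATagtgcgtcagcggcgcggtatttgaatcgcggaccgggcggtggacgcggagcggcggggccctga
Top2a: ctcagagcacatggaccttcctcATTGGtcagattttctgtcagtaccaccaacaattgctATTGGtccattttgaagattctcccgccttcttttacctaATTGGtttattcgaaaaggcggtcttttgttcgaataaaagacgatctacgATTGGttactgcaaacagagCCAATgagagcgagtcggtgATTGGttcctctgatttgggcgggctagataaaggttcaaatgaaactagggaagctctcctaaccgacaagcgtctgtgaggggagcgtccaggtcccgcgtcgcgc
Mki67: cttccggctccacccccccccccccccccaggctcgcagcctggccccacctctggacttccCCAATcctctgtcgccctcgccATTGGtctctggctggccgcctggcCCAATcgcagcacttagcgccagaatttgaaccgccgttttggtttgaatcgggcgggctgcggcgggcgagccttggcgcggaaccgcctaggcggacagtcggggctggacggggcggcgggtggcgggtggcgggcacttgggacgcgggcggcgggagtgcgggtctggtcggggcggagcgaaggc

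Stress and hormone genes passed in both directions, beside 10.3% of all genes higher and 8.71% lower. The counts of the immediate early list are near these shares, and nothing is read from them. Of 23 immediate early and dissociation genes, which tissue digestion can induce, 2 were higher and 3 lower with a median of -0.18, among them Klf2 at 76.8, 67.3 and 113 CPM against 164, 164 and 140.1 CPM (0.86 ± 0.17) and Fosl1 at 77.4, 75 and 79.3 CPM against 49.5, 28.6 and 27.9 CPM (-1.13 ± 0.28). Of 20 heat shock and chaperone genes 3 were higher and 5 lower, with a median of -0.04. The inducible Hspa1a was higher at 1803, 2232 and 1757 CPM against 3313, 2803 and 3673 CPM (0.76 ± 0.18), and the chaperone of the endoplasmic reticulum Hsp90b1 lower at 758, 666 and 799.8 CPM against 441, 497 and 402 CPM (-0.73 ± 0.11). Of 19 glucocorticoid and clock response genes 5 were higher and 8 lower, with a median of -0.24. The clock output gene Dbp was at 4.44, 5.62 and 4.41 CPM against 26.5, 13.7 and 18 CPM (1.98 ± 0.3), with Per3 at 4.78, 5.1 and 5.74 CPM against 12.3, 11.7 and 8.51 CPM (1.07 ± 0.2) in the same direction and Per1 in the opposite one, at 12.6, 14.6 and 13.9 CPM against 5.44, 6.34 and 8.17 CPM (-1.06 ± 0.18). The hour at which mice were killed is not given in the sources used here. Hsd11b1, the enzyme that activates glucocorticoid, was at 27.7, 30.9 and 16.6 CPM against 7.67, 5.71 and 10.8 CPM (-1.69 ± 0.33).

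Leukocyte adhesion and MHC genes, a list of adhesion molecules and of genes of antigen display, gave 2 higher and 1 lower of 11, with a median of -0.05. Over all genes tested 10.3% were higher and 8.71% lower. B2m, the light chain of class I molecules, was at 746, 1181 and 907 CPM against 1629, 1700 and 1425 CPM (0.75 ± 0.14) and H2-D1 at 397, 562 and 445 CPM against 824, 797 and 571 CPM (0.64 ± 0.14), while the class II gene H2-Ab1 was at 13.5, 3.14 and 6.81 CPM against 2.23, 2.22 and 2.5 CPM (-1.72 ± 0.42). None of 5 haemoglobin and erythroid genes passed the threshold, with log2 fold changes of -1.76 to -0.8, and Hbb-bs was highest in resolved 1 at 705, 296 and 310 CPM against 306, 209 and 239 CPM. Of 6 immune cell markers tested Camp was lower, at 9.56, 7.06 and 10.7 CPM against 4.88, 1.43 and 0.167 CPM (-2.08 ± 0.62), a call that was lost without resolved 1 (-2.04), peak 2 (-1.93), resolved 2 (-1.77) or rest 3 (-1.64), and Lyz2 higher, at 3.59, 3.01 and 5.07 CPM against 10.3, 7.53 and 6.84 CPM (1.07 ± 0.25). The summed level of the 7 class markers of immune cells in these sums was 6.13 to 15.7 CPM in the 4-6 and 12.2 to 15.5 CPM in the 7-9 libraries. None of 4 sex-linked transcripts of these male animals passed the threshold.

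Ranked by size rather than by list, the 10 largest differences on the higher side among fibroblast genes were Mstn, Fam180a, Slc40a1, Cilp2, Tspan2, Pamr1, Kera, Adamts15, Spon2 and Tnmd, each without overlap and at 20 CPM or more in the 7-9 libraries. Mstn, which encodes the growth inhibitor myostatin, came from 4, 26 and 1 UMIs in the 4-6 and 278, 554 and 125 UMIs in the 7-9 libraries. Pamr1 (chr2:102550012-102643041, GRCm38) was at 13.5, 17.4 and 21.6 CPM in the 4-6 libraries and 159.7, 149.6 and 175 CPM in the 7-9 libraries (3.19 ± 0.18), and Spon2, a secreted matrix protein, at 45.1, 62.9 and 51.4 CPM against 279.9, 253 and 362 CPM (2.48 ± 0.24). Slc40a1, the iron exporter ferroportin, was at 1.54, 2.09 and 4.94 CPM against 30.8, 22.6 and 41.2 CPM (3.4 ± 0.33). The spread among the 3 libraries of a run was small beside the gap for Pamr1 and Spon2, and wider for Mstn. Fam180a was at 4.1, 3.4 and 2.94 CPM against 31.1, 35.4 and 52.4 CPM (3.51 ± 0.29) and Tspan2 at 3.07, 4.18 and 3.07 CPM against 23, 36.5 and 42.9 CPM (3.29 ± 0.28).

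On the lower side the 10 largest were Cfd, Cxcl13, Lcn2, Cxcl5, Fabp5, Car12, Chl1, Ccl20, Saa1 and Serpina3m. Each was without overlap and at a mean of 20 CPM or more in the 4-6 libraries. Genes under that level, such as Csf3 (-5.11) and Il1rn (-2.96), were not ranked. Cfd, the complement factor D of fat cells, came from 436, 219 and 18 UMIs against 3, 1 and 4 UMIs, and varied most within the 4-6 libraries. It stayed past the threshold without peak 2 and lost that call without any 1 of the 5 others, with log2 fold changes of -7.27 to -5.55. The 5 adipocyte markers summed to 1.6 to 22.8 CPM in the 4-6 and 1.38 to 3.75 CPM in the 7-9 libraries, with Lep at 0 in all 6. Fabp5, a fatty acid carrier, was at 669, 209.8 and 309 CPM in the 4-6 libraries and 42, 50.6 and 65.5 CPM in the 7-9 libraries (-2.91 ± 0.33), and Chl1, a cell adhesion molecule, at 195, 143 and 132 CPM against 24.9, 21.4 and 26.2 CPM (-2.7 ± 0.34). Car12, a carbonic anhydrase at the cell surface, was at 35.9, 20.1 and 20.8 CPM against 5.16, 3.01 and 2.67 CPM (-2.82 ± 0.34), and Serpina3m at 17.6, 33.9 and 17.6 CPM against 6.27, 3.41 and 2.17 CPM (-2.55 ± 0.33).

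**Figure D3:**
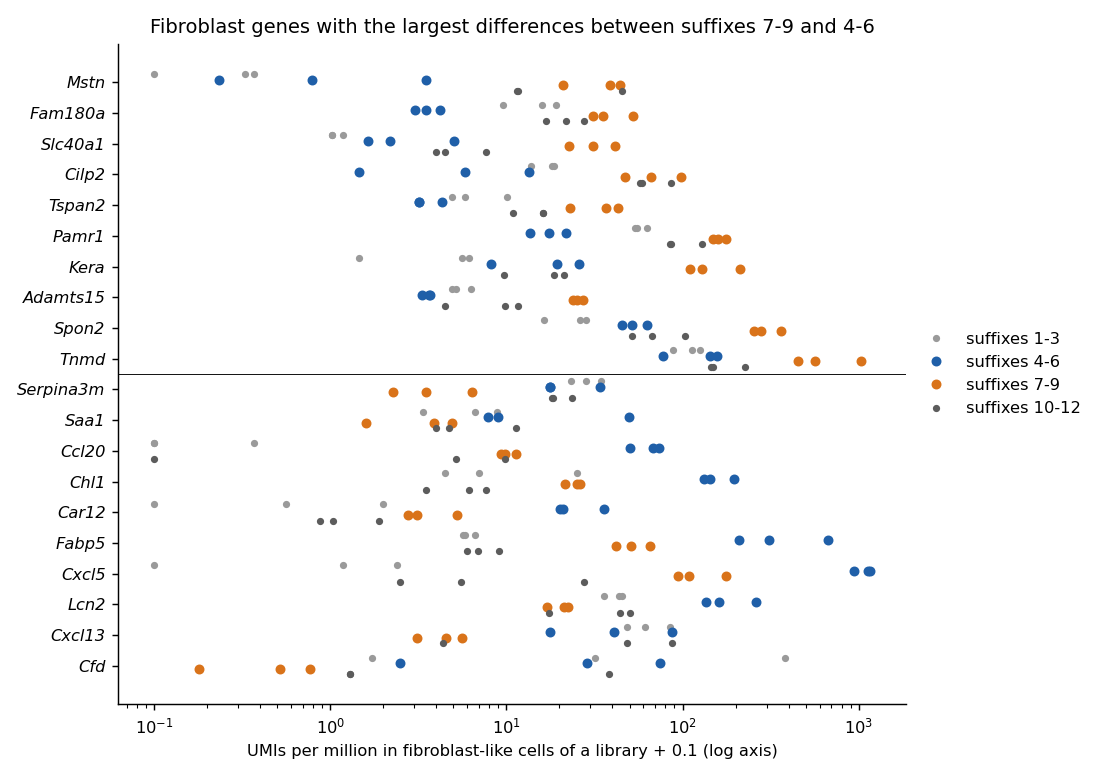
Level in CPM in the fibroblast-like cells of each library plus 0.1 (log axis), 1 point per library, blue for the 4-6, orange for the 7-9 and grey for the other libraries. The genes are the 10 with the largest differences each way among those without overlap and at a mean of 20 CPM or more in the higher run. Blue and orange points do not overlap for any gene, and for Cxcl5 the blue points lie between 946 and 1156 CPM and the orange between 94.4 and 176 CPM.

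The other 6 libraries did not lie uniformly on one side. Of the genes higher in the 7-9 libraries, 62.4% had a mean over the 1-3 and 10-12 libraries nearer to the 7-9 than to the 4-6 libraries, and of the genes lower there 68.0%, beside 58.6% of all genes tested. Serpina3m, for example, was at 23.2 to 34.4 CPM in the 1-3 libraries and 18.1 to 23.4 CPM in the 10-12 libraries, near the 4-6 level, and Fabp5 at 5.57 to 6.5 CPM in the 1-3 libraries and 5.88 to 9 CPM in the 10-12 libraries, below both runs. The 2 labels found on both sides were also compared within the label. Between rest 3 and rest 2, and between resolved 2 and resolved 1, 2229 of the 2238 genes past the threshold (99.6%) had the direction of the runs in both pairs. In these pairs Timp1 differed by -2.21 and -2.22 on the log2 scale, Hk2 by -1.06 and -0.74, and Pamr1 by 3.26 and 3.38. These libraries are among those that set the calls, so the pairs are no independent test. Agreement in direction is largely fixed by the choice of genes past the threshold, and its share over all genes tested was not determined.

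Fits within single clusters, added after the data had been seen, put genes past the threshold in some clusters and not in others, and the differences between clusters were not tested. The C1qtnf3 cluster was not fitted, because resolved 1 held 9 of its cells, under the minimum of 10. In the Cxcl5 and Col5a3 clusters no library outside the compared runs reached that minimum. Their fits held the libraries of the compared runs alone. The fit of the cluster led by Fbln7 lacked peak 1 and resolving 1. Passing or not passing therefore cannot be set side by side between these clusters and the others. Timp1 was lower past the threshold in the Cxcl5 cluster (-1.51 on the log2 scale), the Col5a3 cluster (-1.44) and the lining cluster (-1.55), and lay between -0.41 and -0.06 in the 5 other clusters. Nrep, which encodes a small regulator of TGF-beta and of repair, was higher past the threshold in 5 clusters, by 1.33 to 2.58. Col6a2 was higher past the threshold in 5 clusters too, by 0.77 to 1.44, and Timp2 in 5 by 0.63 to 1.59. Il6 passed in the Col5a3 cluster (-2.68) and was at -0.32 in the Cxcl5 cluster, where it did not pass. Hk2 passed in both of these clusters, at -0.96 and -0.79, and lay between -1.07 and 0.51 in the others without passing.

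**Figure D4:**
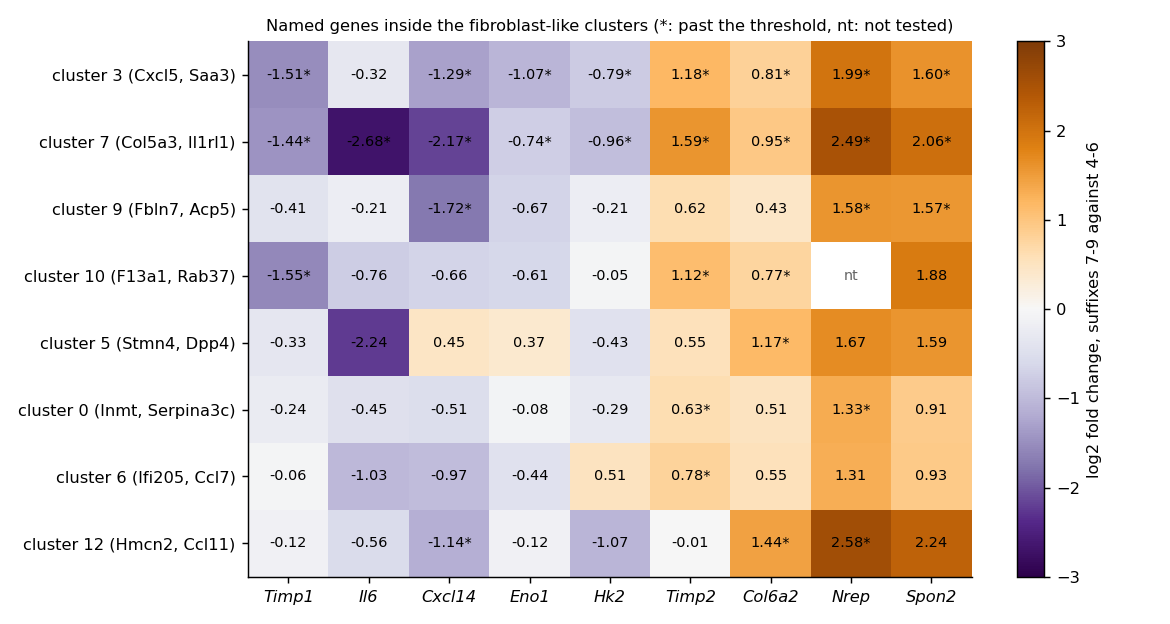
Log2 fold change of 9 genes, 7-9 against 4-6 libraries, fitted within each of 8 fibroblast-like clusters (colour scale and printed values, with a star past the threshold and nt for not tested). Timp1 is starred in 3 clusters, at -1.55 to -1.44, and Nrep in 5, at 1.33 to 2.58. The fits did not all hold the same libraries, so stars cannot be compared between all clusters.

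Without the 3 clusters made up mostly of these runs, an alternative added after the data had been seen, 1.97% of 10856 genes were higher and 1.94% lower. Of the chemokines and cytokines, 1 of 10 CXC chemokines, 3 of 9 CC and CX3C chemokines and 4 of 16 cytokines were then lower. Glycolysis genes dropped to 1 of 17 and cell cycle genes to 2 of 13. Collagens did not drop, with 8 of 21 higher and none lower at a median of 0.63, and 10 of 40 matrix genes were higher with none lower. Timp1 was still lower (-1.03), as were Il6 (-1.37) and Lcn2 (-2.35), while Hk2 (-0.15), Cxcl5 (-0.63) and Ccl2 (-0.49) were not past the threshold. Tnfsf11 (0.57), Ltbp2 (0.55) and Frzb (-0.21) had the opposite sign to that in all fibroblasts, as Ccl20 (1.9) and Tnfsf11 (0.31) had with coarser clusters. Among the genes higher, Pamr1 (1.23), Nrep (1.77) and Spon2 (1.59) still were.

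Lining cells, 170 in the 4-6 libraries together and 301 in the 7-9 libraries, gave 1.1% of 6659 genes higher and 0.766% lower. Neither these nor the sublining cells were fitted with single libraries left out. Timp1 was at 4271, 6369 and 4623 CPM in the 4-6 libraries and 2005, 1627 and 1560 CPM in the 7-9 libraries (-1.55 ± 0.17) and Cxcl5 at 75.8, 116 and 44 CPM against 5.6, 6.35 and 13.2 CPM (-3.42 ± 0.49). Of 17 collagens 4 were higher, Col1a2, Col6a1, Col6a2 and Col6a3, with a median of 0.51 over the list, and Col6a1 was at 394, 216 and 335 CPM against 692, 609.7 and 554 CPM (0.99 ± 0.19). Leukocyte adhesion and MHC genes gave 3 of 8 higher with a median of 0.63, with B2m at 1953, 2061 and 2150 CPM against 3001, 4420 and 2995 CPM (0.76 ± 0.15). Only the cluster led by Stmn4, Dpp4 and Pi16 held enough sublining markers to be named so. Fibroblast clusters without a layer name may hold further sublining cells, which the values below do not cover. The sublining cells so named were few, 72 in the 4-6 libraries together and 166 in the 7-9 libraries, and gave 0.221% of 6339 genes higher and 0.237% lower. There 5 of 18 collagens were higher with a median of 0.79, and Col1a1 was at 3094, 3484 and 2842 CPM against 6835, 5922 and 6666 CPM (1.04 ± 0.16), which it was not in the fibroblasts as a whole. Of 23 immediate early genes 5 were lower in sublining cells, with a median of -0.99, Junb at 2428, 4656 and 2931 CPM against 1424, 974 and 648 CPM (-1.68 ± 0.25) and Egr1 at 1305, 1548 and 1411 CPM against 674, 742 and 497 CPM (-1.12 ± 0.2).

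Endothelial cells of the blood vessels, which were not used to recognise the runs, had lower glycolysis genes and lower Timp1 in the 7-9 libraries. Of 6910 genes tested 0.709% were higher and 0.941% lower, 49 and 65 genes, by edgeR's quasi-likelihood test. Every adjusted p below is from that test, adjusted after Benjamini and Hochberg over all genes of the class. Of 14 glycolysis genes 6 were lower and none higher, with a median of -0.51 beside 0.02 for all genes. Slc2a1 was at 55.9, 68.7 and 63.2 CPM in the 4-6 libraries and 27, 18 and 32.5 CPM in the 7-9 libraries (-1.36 ± 0.27, adjusted p = 0.0174), Slc16a3 at 40.6, 32.9 and 42.1 CPM against 17.2, 3.6 and 3.61 CPM (-2.2 ± 0.47, adjusted p = 0.0215) and Pkm, a pyruvate kinase, at 759, 1041 and 1021 CPM against 511, 601 and 509 CPM (-0.8 ± 0.15, adjusted p = 0.0129). No 7-9 library reached the 4-6 range in these genes. Timp1 was at 259, 200.1 and 164 CPM against 90.9, 75.6 and 28.9 CPM (-1.59 ± 0.31, adjusted p = 0.0171), at a level far under that of the fibroblasts, whose free RNA may reach other droplets, a part that was not tested. The 7 fibroblast markers summed to 1080 to 2860 CPM in the 4-6 and 674 to 2090 CPM in the 7-9 endothelial sums, and none passed the threshold. The median endothelial cell held 3985, 3954.5 and 4066 UMIs in the 4-6 and 2966, 3266 and 2922 UMIs in the 7-9 libraries, and 1682, 1614 and 1691 against 1341, 1540 and 1357 detected genes. The 8 endothelial markers summed to 5340 to 5880 CPM against 6510 to 7220 CPM, and the 5 sublining markers to 739 to 843 against 905 to 1040 CPM, with no marker of either list past the threshold. The part of depth and of these markers in the endothelial differences was not tested.

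Of 19 cell cycle genes 3 were lower in endothelial cells, with a median of -1.08, which were Mcm5, a part of the replication helicase (-1.41, adjusted p = 0.0422), Tyms (-1.08, adjusted p = 0.0297) and Hmgb2 (-0.85, adjusted p = 0.0254). The 7 proliferation markers summed to 318 to 696 CPM in the 4-6 and 210 to 232 CPM in the 7-9 sums, and none passed by itself. Of 7 CXC chemokines 1 was higher, and of 4 CC and CX3C chemokines none passed. Cxcl12, which keeps CXCR4-bearing cells at vessels, was that gene, at 531, 729 and 613 CPM in the 4-6 libraries and 1034, 801 and 1083 CPM in the 7-9 libraries (0.63 ± 0.13, adjusted p = 0.0215). Ssu2 was at 7.62, 8.96 and 12.6 CPM against 44.2, 46.8 and 43.3 CPM (2.18 ± 0.32, adjusted p = 0.0022), Chd3, a chromatin remodeller, at 15.2, 7.47 and 12.6 CPM against 56.5, 48.6 and 39.7 CPM (2.12 ± 0.37, adjusted p = 0.00867) and Ripply3 at 5.08, 7.47 and 6.32 CPM against 31.9, 21.6 and 21.7 CPM (1.92 ± 0.39, adjusted p = 0.0192). In these 3 genes the 7-9 levels were like those of the other 6 libraries, Ssu2 being at 39.7 to 58.6 CPM in the 1-3 libraries and 37.6 to 46.2 CPM in the 10-12 libraries. Tmem97, a sterol-regulated membrane protein, was lower at 53.3, 28.4 and 31.6 CPM against 7.37, 7.2 and 7.22 CPM (-2.3 ± 0.47, adjusted p = 0.0192), and so was Tssc1 (-2.18, adjusted p = 0.0351). With single libraries left out 20 (without resolving 2) to 72 (without resolved 2) endothelial genes passed in place of 114. Of the 24 that are in a list or among the largest differences, Ssu2 passed in all 6 of these fits, Chd3 in 5, and Slc2a1, Pkm, Timp1 and Calr in 3. Cxcl12, Tmem97, Hsp90b1 and Hspb1 passed in 2, and Slc16a3, Ripply3, Tyms, Hmgb2, Gapdh, Ldha, Hspa1a and Nbl1 in 1. Mcm5, Tssc1, Pgam1, Atp5g1, Nrep and Eif4a1 passed in none, and no direction changed. The log2 fold change of Slc16a3 was -3.33 without resolving 2.

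Tenocyte-like cells had lower immediate early genes and higher collagens in the 7-9 libraries. Of 7545 genes tested 0.676% were higher and 0.848% lower, 51 and 64 genes. Of 23 immediate early and dissociation genes 10 were lower and none higher, with a median of -0.7 beside -0.01 for all genes. Fosb was at 1162, 1198 and 1009 CPM in the 4-6 libraries and 446, 388 and 577 CPM in the 7-9 libraries (-1.27 ± 0.28, adjusted p = 0.0293), Nr4a1 at 896, 844 and 570.1 CPM against 354, 275 and 483 CPM (-1.07 ± 0.23, adjusted p = 0.026) and Fos at 10040, 10560 and 8261 CPM against 6162, 4256 and 6000 CPM (-0.81 ± 0.18, adjusted p = 0.0306). These transcription factors answer within minutes to growth factors, stretch and tissue digestion, and the part of the digestion was not tested.

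Matrix genes of tenocytes were higher, with 6 of 19 collagens and 5 of 39 matrix glycoproteins past the threshold and none lower. Col6a2 was at 349, 374 and 399.8 CPM in the 4-6 libraries and 932, 893 and 828 CPM in the 7-9 libraries (1.24 ± 0.12, adjusted p = 6.1e-05) and Col15a1 at 39.1, 53.1 and 29.6 CPM against 98.6, 95.1 and 82.8 CPM (1.15 ± 0.24, adjusted p = 0.0237). Kera, a tenocyte marker, was at 307, 435 and 321 CPM against 888, 843 and 845 CPM (1.27 ± 0.17, adjusted p = 0.00123), and the 7 tenocyte markers summed to 7740 to 10900 CPM against 12800 to 16500 CPM. The 7-9 libraries were above the 4-6 libraries in all 3 genes. Cxcl14 was lower at 2354, 1276 and 1288 CPM against 415, 862 and 770.4 CPM (-1.27 ± 0.24, adjusted p = 0.0137). The fibroblast markers summed to 42100 to 51700 CPM against 38500 to 47700 CPM in these sums, with none past the threshold. The 5 sublining markers summed to 335 to 378 against 505 to 579 CPM, of which Thy1 was higher past the threshold, and the 6 erythroid markers to 470 to 698 against 257 to 462 CPM, of which none was. The part of such cells or their RNA was not tested.

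By size, Slurp1, C1qtnf3 and Pamr1 led the higher side in tenocytes and Ggt5, Rasd1 and Fbxo33 the lower side. Slurp1, a small secreted protein, had 0, 4 and 0 UMIs in the 4-6 and 106, 54 and 5 UMIs in the 7-9 libraries (4.71 ± 0.86, adjusted p = 0.0101), with rest 3 close to rest 2. Its log2 fold change was 9.31 without rest 2 and 4.04 without resolving 2, the call was lost without resolved 1 (4.31) or peak 2 (4.24), and with coarser clusters it was 0.57 and not past the threshold. C1qtnf3 was at 11.2, 18.7 and 22.2 CPM against 97.4, 70.7 and 63.5 CPM (2.15 ± 0.44, adjusted p = 0.021) and Pamr1 at 16.8, 42.1 and 46.9 CPM against 170.2, 103 and 160.2 CPM (1.96 ± 0.29, adjusted p = 0.00238). Ggt5, which converts leukotriene C4, was at 36.3, 31.2 and 37 CPM against 4.69, 10.3 and 13.8 CPM (-1.98 ± 0.4, adjusted p = 0.021), Rasd1 at -1.75 on the log2 scale (adjusted p = 0.0407) and Fbxo33 at -1.67 (adjusted p = 0.021). With single libraries left out 23 (without resolved 1) to 97 (without rest 3) tenocyte genes passed in place of 115. Of the 46 that are in a list or among the largest differences 10 passed in all 6 of these fits, Angptl2, Col6a1, Col6a2, Col6a3, Dkk3, Eif4a1, Hspa5, Kera, Klf4 and Pamr1, while Cxcl14 passed in 5, Slurp1 in 4, Nr4a1, Col15a1, C1qtnf3 and Fbxo33 in 2, Fosb and Ggt5 in 1 and Fos and Rasd1 in none. No direction changed in these fits. Of the 10 immediate early genes only Klf4 passed in all of them.

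Chondrocyte-like cells, of which single libraries held 35 to 98 and in 1 of whose clusters no fixed chondrocyte marker led, gave 0.261% of 5361 genes higher and 0.205% lower, 14 and 11 genes. Of 18 collagens 4 were higher past the threshold with a median of 0.84, and with 1 library left out Col1a2, Col5a1 and Col15a1 passed in none of the 6 fits and Col6a1 in 1. Col1a2 was at 1159, 1701 and 1043 CPM in the 4-6 libraries and 6481, 4172 and 5513 CPM in the 7-9 libraries (2.05 ± 0.38, adjusted p = 0.0308), Col5a1 at 66.5, 48.4 and 107 CPM against 203, 188 and 189 CPM (1.49 ± 0.29, adjusted p = 0.0369) and Col15a1 at 31.5, 30.8 and 35.8 CPM against 109.8, 116 and 89.3 CPM (1.73 ± 0.3, adjusted p = 0.0283). Col2a1, the main collagen of cartilage, overlapped at 21180, 6905 and 7941 CPM against 15040, 13140 and 11420 CPM (adjusted p = 0.991).

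Itm2a, a membrane protein of early chondrocyte differentiation, had the largest difference among the chondrocyte genes past the threshold, without overlap and at 20 CPM or more, at 158, 306 and 138 CPM in the 4-6 libraries and 1020, 2320 and 1664 CPM in the 7-9 libraries (3.01 ± 0.37, adjusted p = 0.00439). Cilp2 was at 49, 41.8 and 51.1 CPM against 286, 238 and 268 CPM (2.5 ± 0.47, adjusted p = 0.0308) and Fam180a at 94.6, 26.4 and 20.4 CPM against 263, 271 and 242 CPM (2.46 ± 0.44, adjusted p = 0.0297), both of them also among the largest differences of fibroblasts. The aggrecan-cutting protease Adamts5 was lower at 123, 145 and 317 CPM against 37, 59.6 and 36.8 CPM (-2.08 ± 0.41, adjusted p = 0.0383), as was Adamts1 at 112, 174 and 235 CPM against 54.9, 62.5 and 36.8 CPM (-1.67 ± 0.31, adjusted p = 0.0308). Pdpn, the surface glycoprotein podoplanin and a fibroblast marker, was at 109, 215 and 169 CPM against 56.1, 26.8 and 36.8 CPM (-1.94 ± 0.33, adjusted p = 0.0283). The 7 fibroblast markers summed to 19800 to 35300 CPM against 21300 to 24300 CPM, and the tenocyte markers to 1890 to 2750 against 2170 to 4390 CPM. Leaving out 1 library left 2 (without peak 2) to 20 (without resolved 1) chondrocyte genes in place of 25, and Itm2a alone among the 15 that are in a list or among the largest differences passed in all 6 fits. Pdpn passed in 2, Adamts1, Adamts5, Fam180a, Mt1, Mt2 and Sod2 in 1, and Cilp2, Cthrc1 and Postn in none, with no change of direction. The 8 perivascular markers summed to 77 to 109 against 114 to 195 CPM, with Myh11 and Higd1b at 0 in all 6 sums, and the 8 vascular endothelial markers to 31.2 to 113 against 0 to 29.6 CPM, a part that was not tested. The class joined a cluster led by Cytl1 and Clu, with 130 and 124 cells of the runs, and another led by Col9a3 and Col2a1, with 44 and 65. Its median cell held 5569, 4653 and 5004 UMIs in the 4-6 and 8242, 5752.5 and 4326 UMIs in the 7-9 libraries. The 5 lining markers summed to 11700 to 28200 against 3110 to 18400 CPM. The part of this mix and of depth was not tested.

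Osteoblast-like cells gave 0.0782% of 6395 genes higher and 0.25% lower, 5 and 16 genes. Thbs3, a thrombospondin of bone matrix, was at 44.7, 64.8 and 38 CPM in the 4-6 libraries and 120.3, 115 and 172 CPM in the 7-9 libraries (1.41 ± 0.25, adjusted p = 0.0265), Cthrc1 at 748, 846 and 642 CPM against 1473, 1601 and 1351 CPM (0.99 ± 0.15, adjusted p = 0.0143) and Spon2 at 35.1, 35.4 and 13.8 CPM against 118, 99.3 and 172 CPM (2.12 ± 0.39, adjusted p = 0.0265). Spon2 and Cthrc1 were higher in fibroblasts too, as given for that class, and the part of free fibroblast RNA was not tested. The 7 fibroblast markers summed to 22000 to 25300 against 22400 to 24900 CPM in the osteoblast sums. The 7 tenocyte markers summed to 928 to 1610 against 1840 to 2450 CPM and the 6 erythroid markers to 434 to 10300 against 270 to 419 CPM, both without overlap and with none past the threshold, and their part was not tested. Mepe, a phosphoprotein of the bone matrix made by mature cells, had 22, 14 and 5 UMIs in the 4-6 libraries and none in the 7-9 libraries (adjusted p = 0.0384), at least 19.8-fold lower with 3 counts over the 3 libraries as the floor. The antiproliferative gene Tob2 was at 67.1, 59 and 69 CPM against 22.3, 19.2 and 15.3 CPM (-1.73 ± 0.3, adjusted p = 0.0265) and Mphosph8 at 73.5, 44.2 and 75.9 CPM against 20.1, 24 and 30.6 CPM (-1.4 ± 0.29, adjusted p = 0.0384). Of 21 immediate early genes 3 were lower, Fosb, Ier3 and Myc, by -1.05 to -0.8 on the log2 scale, with a median of -0.37. Leaving out 1 library left 1 (without rest 3) to 43 (without rest 2) osteoblast genes in place of 21, and Cthrc1 alone among the 13 that are in a list or among the largest differences passed in all 6 fits. Thbs3 passed in 3, Spon2, Mepe, Ier3 and Tnc in 2, Tob2, Mphosph8, Fosb, Myc, Calr and Col6a2 in 1 and Hspa5 in none.

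Perivascular cells, smooth muscle cells and pericytes around vessels, gave 0.438% of 3193 genes higher and 0.094% lower, 14 and 3 genes. Ccl19 was lower at 184, 316 and 165 CPM in the 4-6 libraries and 6.87, 16 and 61 CPM in the 7-9 libraries (-3.35 ± 0.53, adjusted p = 0.00682), with rest 3 highest of the 7-9 libraries. Nrep was higher at 13.2, 34 and 13 CPM against 96.2, 166 and 131 CPM (2.79 ± 0.41, adjusted p = 0.00423). The pericyte gene Higd1b was at 161, 217 and 253 CPM against 619, 723 and 609.8 CPM (1.64 ± 0.22, adjusted p = 0.00226), and Mfap2, a microfibril protein, at 115, 126 and 104 CPM against 323, 243 and 296 CPM (1.28 ± 0.26, adjusted p = 0.0276). Of 20 heat shock genes 3 were higher, Hspa1a, Hspa1b and Hspb1, by 1.21 to 1.25 on the log2 scale, with a median of 0.31. Crispld2 was lower at 1278, 819 and 1031 CPM against 474, 371 and 383 CPM (-1.36 ± 0.28, adjusted p = 0.0276). Leaving out 1 library left 2 (without resolved 1) to 22 (without rest 2) perivascular genes in place of 17. Higd1b passed in all 6 of these fits, Ccl19 in 5 and Nrep in 4, whereas Mfap2, Hspa1a, Hspb1 and Angptl2 passed in 2 and Crispld2, Hspa1b, Aspn and Nbl1 in 1. The median perivascular cell held 4745, 4612 and 5766.5 UMIs in the 4-6 and 2942, 3442.5 and 3258 UMIs in the 7-9 libraries, and the 8 muscle markers summed to 937 to 1050 against 753 to 760 CPM, a part that was not tested.

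A small number of genes differed in the same direction in several of the 6 classes. Of the genes past the threshold on the higher side 1143 were so in 1 class, 46 in 2, 7 in 3 and 3 in 4 classes, and on the lower side 959 in 1, 82 in 2 and 6 in 3. Nrep was higher in fibroblasts at 23.9, 28.9 and 26 CPM in the 4-6 libraries and 118, 153 and 99.9 CPM in the 7-9 libraries (2.23 ± 0.15), and in endothelial cells (1.29, adjusted p = 0.0374), tenocytes (1.34, adjusted p = 0.0265) and perivascular cells. Nbl1 (chr4:139082284-139092993, GRCm38), a secreted BMP antagonist, was higher in fibroblasts at 298, 413 and 350.4 CPM against 1214, 1091 and 1125 CPM (1.69 ± 0.14) and in endothelial cells (1.25, adjusted p = 0.035), tenocytes (0.62, adjusted p = 0.0346) and perivascular cells (0.98, adjusted p = 0.0276). Cthrc1, a secreted protein of injured tissue, was at 1057, 1071 and 1359 CPM against 1917, 2303 and 2134 CPM in fibroblasts (0.87 ± 0.23), and was also higher in osteoblasts, chondrocytes (1.09, adjusted p = 0.0383) and tenocytes (1.01, adjusted p = 0.0265). Angptl2 and Thbs3 were higher in 3 classes each, Angptl2 in tenocytes by 1.25 ± 0.16 (adjusted p = 0.000764). Among these calls outside fibroblasts, Angptl2 in tenocytes and Cthrc1 in osteoblasts passed whichever library was left out, whereas Nrep in endothelial cells and Cthrc1 in chondrocytes passed in no such fit. In tenocytes Thbs3 passed in 5 of these 6 fits, Nrep in 2, and Nbl1 and Cthrc1 in 1. The fibroblast levels of Nrep and Cthrc1 moved the same way, and the part of free fibroblast RNA in these values was not tested. Cthrc1 in fibroblasts did not pass without resolved 1 (0.8).

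Of the 6 genes lower in 3 classes, Mt1, Mt2, Hspa5, Calr and Eif4a1 were taken by the rule for named genes, and the other was Fth1, the heavy chain of ferritin. Mt1 and Mt2 are metallothioneins, Hspa5 and Calr chaperones of the endoplasmic reticulum and Eif4a1 a translation factor. Mt2, which binds zinc and is induced by metals, stress and glucocorticoid, was at 12100, 11220 and 11850 CPM in the 4-6 libraries and 7075, 4224 and 7522 CPM in the 7-9 libraries in tenocytes (-0.9 ± 0.18, adjusted p = 0.0163), and was lower in chondrocytes (-1.02, adjusted p = 0.0308) and fibroblasts (-0.86) as well. Mt1 was lower in the same 3 classes. In fibroblasts Mt1 did not pass without rest 2 (-0.47), resolved 2 (-0.48) or rest 3 (-0.6). In perivascular cells neither passed, with Mt2 at 0.03 and Mt1 at 0.33. Hspa5, the chaperone BiP, was lower in tenocytes at 1824, 1648 and 1713 CPM against 880.2, 928 and 878 CPM (-0.95 ± 0.13, adjusted p = 0.00143) and in osteoblasts (-0.75, adjusted p = 0.0384). Calr was lower in endothelial cells (-0.76, adjusted p = 0.0158) and osteoblasts (-0.67, adjusted p = 0.0321), and Eif4a1 in endothelial cells (-0.5, adjusted p = 0.0351) and tenocytes (-0.73, adjusted p = 0.00698), both of them in fibroblasts too. With single libraries left out Hspa5 and Eif4a1 passed in every fit in tenocytes, Hspa5 in osteoblasts and Eif4a1 in endothelial cells in none, and Calr in 3 of 6 fits in endothelial cells and 1 of 6 in osteoblasts. Mt1 and Mt2 passed in 3 of 6 fits in tenocytes and 1 of 6 in chondrocytes.

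**Figure D5:**
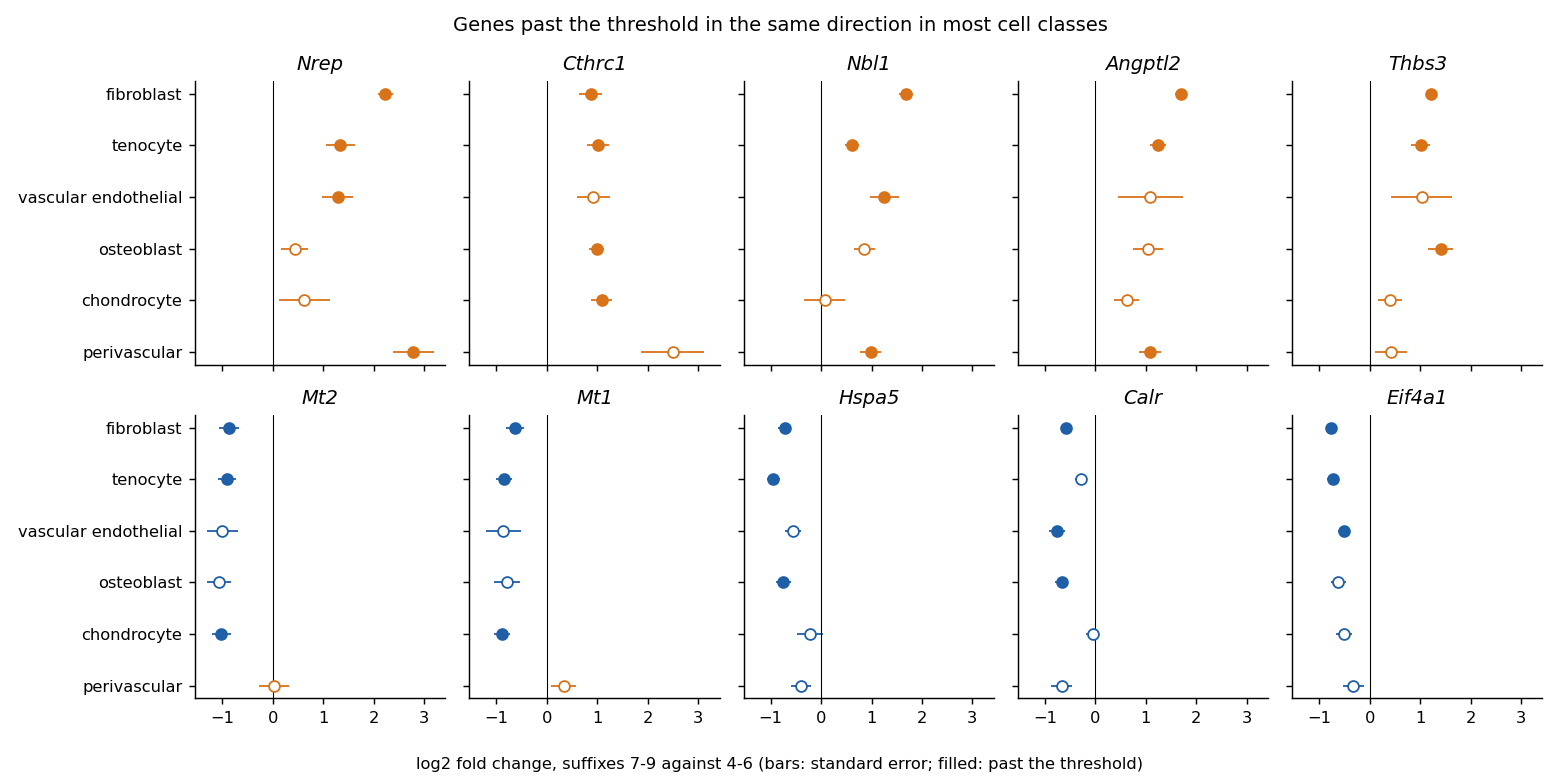
Log2 fold change, 7-9 against 4-6 libraries (linear axis, bars for the standard error), of the 5 genes each way past the threshold in the largest number of 6 classes, with filled points past the threshold. Nrep and Cthrc1 lie above 0 in all 6 classes, and Mt2 and Mt1 lie below 0 in 5.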

How the data were processed

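Gene by cell tables of 12 libraries (10x 3′ kit, version 2) were used. The authors made these counts, whole UMIs for each of 27998 genes in each cell, with CellRanger on mm10, and no further filter is stated for the deposited tables. The equal median depth of all libraries was found in the files, and its origin is not given in the sources used here. Cells with more than 500 and fewer than 5000 genes were normalized, reduced to 2000 variable genes and 30 components and clustered with scanpy 1.11.5 (Leiden, resolution 1) into 25 clusters, which were named from marker lists. The limits for naming were set after the clusters had been seen. A doublet caller marked 56 cells (0.277%), too few to rely on, so no doublets were removed.

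UMIs were summed per library and class (10 or more cells) and fitted over all 12 libraries in 4 runs of suffixes with edgeR 4.0.16 (R 4.3.3, filterByExpr, TMM, quasi-likelihood), adjusting p-values after Benjamini and Hochberg. Within single clusters, libraries with fewer than 10 cells of the cluster were left out of the fit. Libraries are pools of animals and stand as replicates, so p-values cover the spread between pools. Shares of classes other than fibroblast-like and proliferating cells were compared by two-sided exact permutation. The members, gene lists and tests were chosen with earlier results of these data known. Genes were named as the 10 largest differences each way in fibroblasts, the 3 largest in other classes and the 5 found in the largest number of classes, without overlap and at 20 CPM or more, plus up to 4 per list and the genes on which the study reported. Of a list with no gene past the threshold the highest expressed were taken. Further genes in lists of other classes were named after their values had been seen. The fit was tested on simulated fibroblast and endothelial sums with 200 genes changed, and on no other class. At a log2 change of 1, 75.4% of these genes were recovered in fibroblasts and 49% in endothelial cells. At a change of 2, 97.5% and 90.8% were recovered. False calls were 3.29% and 3.52% of the calls in fibroblasts and 4.95% and 6.32% in endothelial cells. Alternatives were DESeq2 1.42.0, other scalings, filters, doublet and UMI limits, clusterings and models. The mapping of replicate numbers across runs is treated with the alternatives. Genes whose reads a close copy may share, such as Mt1 and Mt2 or Hspa1a and Hspa1b, are uncertain. Values of 1 listed gene are not reported here.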

Additional observations from a re-analysis of the deposited data

Results flagged for a closer look

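Both genes below differed in opposite directions between fibroblasts and vascular endothelial cells, with no overlap between the runs on either side. This difference between the cell classes was not tested. Cxcl12 was lower in fibroblasts of the 7-9 libraries, with means of 1456 CPM in the 4-6 and 1004 CPM in the 7-9 libraries and a log2 fold change of -0.54, and higher in endothelial cells, with means of 624.1 and 972.7 CPM and a log2 fold change of 0.63. Cd38, an enzyme that consumes NAD, was lower in fibroblasts at a level near the limit of detection, 4.571 against 2.668 CPM (-0.81), and higher in endothelial cells at 102.5 against 169.1 CPM (0.71). Groups of 3 libraries were not searched for single outlying samples.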

How the results depend on the processing

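Each setting was changed alone. In fibroblasts 1249 genes passed with coarser clusters (Leiden resolution 0.5), which joined the Cxcl5 cluster to the proliferating one, and 425 without the clusters mostly of these runs, in place of 2238. With other scalings 2256 and 2274 passed, with DESeq2 2009 and with the stage label as a term 1790. With no filter on low counts 273 endothelial, 146 osteoblast, 154 chondrocyte, 326 tenocyte and 97 perivascular genes passed, and with the stage label as a term 25 endothelial, 9 chondrocyte, 76 tenocyte and 11 perivascular genes. DESeq2 called 60 osteoblast and 56 chondrocyte genes, the fit of the 6 libraries alone 6 osteoblast genes, and the upper limits on UMIs left 15 chondrocyte genes. Chondrocytes could not be fitted with coarser clusters, for want of cells. Except for the settings named, the cause of these changes was not tested.

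With 1 library left out 20 to 72 endothelial, 1 to 43 osteoblast, 2 to 20 chondrocyte, 23 to 97 tenocyte and 2 to 22 perivascular genes passed, fewer libraries entering each fit. Endothelial counts were 35 without resolved 1, 31 without rest 2, 67 without peak 2, 20 without resolving 2, 72 without resolved 2 and 23 without rest 3. Osteoblast counts were 5, 43, 8, 6, 5 and 1 in the same order. Chondrocyte counts were 20, 3, 2, 8, 3 and 3. Tenocyte counts fell to 23 without resolved 1, 37 without peak 2, 65 without rest 2, 52 without resolving 2 and 56 without resolved 2, and perivascular counts to 2 without resolved 1, 4 without peak 2 and 3 without resolving 2.

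Only replicate number 2 occurs in both runs. Between its libraries across the runs, correlations of the deviations from the run means were 0.18, -0.28, -0.17 and 0.19. Pairs of unlike number were not set beside them, so these values cannot show whether replicate numbers pair libraries. A fit with the replicate block called 1515 fibroblast, 16 endothelial, 5 osteoblast, 15 chondrocyte, 37 tenocyte and 8 perivascular genes.

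The difference in the fibroblast share, 9.72 percentage points, was 31.9 with coarser clusters and -4.97 with each cell classed by its markers, and that in the proliferating share, -7.8, was -30.2 with coarser clusters. The tenocyte share differed by 2.92 points, without overlap, with each cell classed by its markers, of which 5 of 7 were higher in fibroblasts. Single fibroblast genes turned round as follows. With coarser clusters Ccl20 was at 1.9, H2-D1 at -0.0 and Tnfsf11 at 0.31. Without the clusters mostly of these runs Frzb was at -0.21, Ltbp2 at 0.55 and Tnfsf11 at 0.57. Over all cells of a library H2-Ab1 was at 0.24 and Saa1 at 0.79. The fits without clusters, within clusters and on clusters made without called genes, and the proliferating class, were added after the data had been seen. Osteoblast, chondrocyte, tenocyte and perivascular sums held 35 to 177 cells per library, and what that depth could show was not tested. The same holds for sublining cells, 72 over the 4-6 and 166 over the 7-9 libraries, and for lining cells, 170 and 301.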
